A study of Mus musculus with 24 samples.

Results

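Elf5, Foxi2, Foxi3, Krt5, Krt8, Krt18, Epcam, Cdh1, Trp63 and Grhl2 are genes of the epithelium that covers the embryonic pharyngeal arches. They were named as a list, chosen with earlier results of these data known but with no threshold on their values, and are 10 of the 26611 genes with an identifier in the count table. All 10 passed the filter on low counts. They were measured by RNA-seq of polyadenylated RNA from pharyngeal arches 1 and 2 of female C57BL/6 mouse embryos at E10.5, with 4 biological replicates for each of 6 genotypes. The libraries labelled Kat6a homozygous were given as Kat6a -/- and Dlx5 +/+, where Kat6a is the gene for a histone acetyltransferase also called Moz. The libraries labelled Dlx5 homozygous were given as Kat6a +/+ and Dlx5 -/-, where Dlx5 is a homeobox gene of the lower jaw primordium. The double heterozygous group was Kat6a +/- and Dlx5 +/-, the Kat6a heterozygous group Kat6a +/- alone and the Dlx5 heterozygous group Dlx5 +/- alone, and wild type was +/+ for both genes. Embryos came from 2 mouse facilities, which the labels give as batches. All libraries labelled Kat6a homozygous and all wild type libraries lay in batch 2, all libraries labelled Dlx5 homozygous lay in batch 1, and the 3 heterozygous groups spanned both.

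The surface ectoderm of the arches is a thin sheet over a large mass of neural crest mesenchyme and sends growth factors such as Fgf8, Bmp4 and Edn1 to it. Forkhead factors of the Foxi family act in non-neural ectoderm and placodes, Trp63 maintains stratifying epithelia, and Grhl2 keeps epithelial junction genes active. Krt8 and Krt18 pair into the filaments of simple epithelia, Krt5 marks basal cells of stratified epithelia, and Cdh1 (E-cadherin) and Epcam hold epithelial cells together. Elf5 is an ETS factor of glandular and keratinocyte epithelia and of the trophoblast. Because the arches were sequenced whole, fewer epithelial cells and less RNA per epithelial cell cannot be told apart in any of the values below, and pharyngeal endoderm expresses several of these genes too.

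Promoter windows from RefSeq (GRCm38.p6, 250 bases before to 50 bases after the start) were matched for 7 of the 10 genes, in 8 windows since Elf5 has 2. Those of Elf5 and Foxi2 are shown because these genes carry the called differences, and those of Krt8, Krt18 and Epcam because these genes varied together across libraries. Each is written 5′ to 3′ on the gene's strand, with capitals marking matches to the searched motifs.
Elf5, chr2:103411848-103412147, plus strand: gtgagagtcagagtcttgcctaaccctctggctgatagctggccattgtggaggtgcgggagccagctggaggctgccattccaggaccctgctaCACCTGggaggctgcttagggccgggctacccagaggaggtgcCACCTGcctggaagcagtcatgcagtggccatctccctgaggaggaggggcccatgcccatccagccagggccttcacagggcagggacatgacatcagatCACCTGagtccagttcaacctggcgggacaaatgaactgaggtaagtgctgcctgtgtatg
Foxi2, chr7:135410117-135410416, plus strand: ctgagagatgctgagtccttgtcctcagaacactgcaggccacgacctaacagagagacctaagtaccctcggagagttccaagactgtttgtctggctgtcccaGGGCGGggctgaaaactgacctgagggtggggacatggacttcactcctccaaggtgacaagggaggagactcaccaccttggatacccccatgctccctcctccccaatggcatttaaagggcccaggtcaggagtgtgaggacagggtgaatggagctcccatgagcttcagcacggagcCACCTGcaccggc
Krt8, chr15:102004293-102004592, minus strand: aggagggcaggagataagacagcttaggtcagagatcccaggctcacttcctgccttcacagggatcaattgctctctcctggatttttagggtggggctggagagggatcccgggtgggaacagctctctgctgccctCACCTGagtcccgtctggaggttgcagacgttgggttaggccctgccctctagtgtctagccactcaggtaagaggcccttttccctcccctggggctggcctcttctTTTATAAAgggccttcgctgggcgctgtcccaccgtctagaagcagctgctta
Krt18, chr15:102027966-102028265, plus strand: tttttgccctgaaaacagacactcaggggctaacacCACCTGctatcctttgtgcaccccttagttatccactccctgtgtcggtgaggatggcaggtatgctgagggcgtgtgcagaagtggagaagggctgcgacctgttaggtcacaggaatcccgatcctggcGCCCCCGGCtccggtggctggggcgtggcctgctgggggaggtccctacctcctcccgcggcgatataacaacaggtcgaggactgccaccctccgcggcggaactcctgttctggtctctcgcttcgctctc
Epcam, chr17:87635729-87636028, plus strand: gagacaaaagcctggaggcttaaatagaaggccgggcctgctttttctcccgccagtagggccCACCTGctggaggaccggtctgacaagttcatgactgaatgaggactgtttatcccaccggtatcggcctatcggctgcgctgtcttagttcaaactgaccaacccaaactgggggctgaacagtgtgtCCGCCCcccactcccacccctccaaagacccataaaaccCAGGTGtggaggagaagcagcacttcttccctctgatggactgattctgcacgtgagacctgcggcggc

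The motifs searched, on both strands, were CACCTG, the E-box of Zeb and Snai repressors, GCCNNNGGC of AP-2 factors, AACNNGTT of grainyhead factors, TAATTA of homeodomain factors, the GC box GGGCGG and the TATA box TATAAA. The E-box was in the windows of 6 of the 7 matched genes, and in 20.2% of all 32851 RefSeq windows of this length. The Elf5 window printed above held it 3 times, first bases at −155, −112 and −11 from the start, and that of Epcam held it at −187 and −19. The window of Foxi2 held it once, at 38. GCCNNNGGC was in the windows of Krt18 (at −83) and Foxi3, and in 16.6% of all windows. In Foxi3 that match overlapped a GC box. The GC box was found in the windows of Foxi2, Foxi3 and Epcam, and in 35.7% of all windows. TATAAA matched the Krt8 window at −3 and −1, on opposite strands and overlapping, and 13.6% of all windows held it. TAATTA and AACNNGTT were in none of the 8 windows, against 5.29% and 4.2% of all windows. These matches describe the letters alone.

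Library totals ran from 10.4 to 28.2 M counts, the highest in wild type replicate 1. Kat6a averaged 228 ± 15 CPM in the libraries labelled Kat6a homozygous and 202 ± 41 CPM in wild type (CPM, each library's counts divided by its TMM-scaled total, mean ± SD, n = 4 each). Dlx5 averaged 62.6 ± 5.1 CPM in the libraries labelled Dlx5 homozygous and 69.4 ± 6.8 CPM in wild type. Neither targeted gene was lower at an adjusted p under 0.05 in the libraries labelled homozygous for it (edgeR, 0.474 for Kat6a and 0.947 for Dlx5), and counts over a whole gene cannot show the deletion of part of it. Every direction below for these groups is therefore one in libraries so labelled. Markers of neurons and glia summed to 300 CPM in replicate 2 of the libraries labelled Kat6a homozygous, 550 CPM in replicate 2 of Kat6a heterozygous, 389 CPM in replicate 2 of Dlx5 heterozygous and 484 CPM in replicate 2 of wild type. They summed to 137 to 309 CPM in the double heterozygous libraries and to 33.2 to 50.3 CPM in those labelled Dlx5 homozygous. In wild type replicate 4 the deviation of genes from their mean changed by −0.154 on the log2 scale for each doubling of gene length, against a range of −0.0522 to 0.0965 in the other 23 libraries.

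Relative to length, Krt18 was the most abundant of the 10, with a mean of 38.6 CPM per kb of transcript over the 24 libraries, followed by Epcam with 31.0 and Krt8 with 30.5. These 3 lay between the 79th and 84th percentile of the genes tested. Trp63 followed with 16.4 CPM per kb, Cdh1 with 14.2 and Grhl2 with 8.47. Foxi2 had 3.76 CPM per kb, Foxi3 1.65, Krt5 1.46 and Elf5 0.511. Trp63 lay above Cdh1 in every library. The order of Epcam and Krt8 changed between libraries, as did that of Foxi3 and Krt5, so the order within the latter pairs is not firm. Counts behind a value ran from 405 to 1717 for Krt8 and Krt18, and from 6 to 33 for Elf5, so that counting error alone was large for Elf5. The fitted difference of batch 1 over batch 2 was positive for 8 of the 10 genes on the log2 scale, up to 0.58 for Foxi2, and negative for Krt5 (−0.83) and Elf5 (−0.24).

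**Figure D1:**
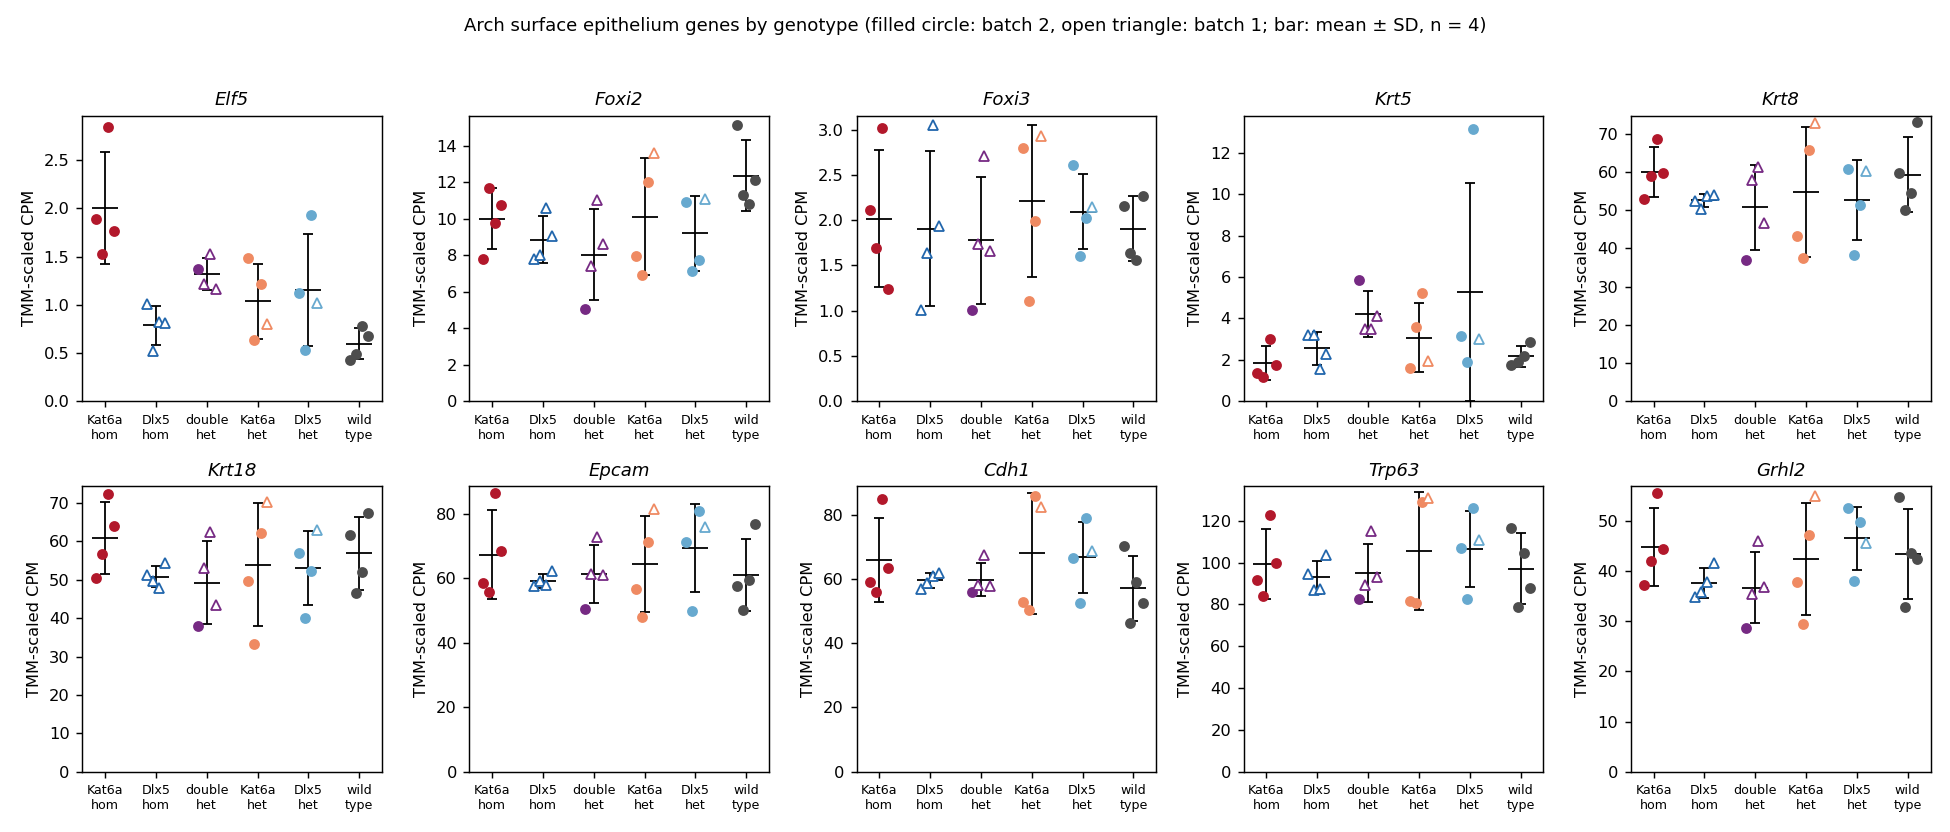
Level of each of the 10 genes in every library, as TMM-scaled CPM on a linear axis from 0, by genotype. Points are libraries, filled circles batch 2 and open triangles batch 1, and bars are the mean ± SD of 4 libraries. All 4 libraries labelled Kat6a homozygous sit above all 4 wild type libraries for Elf5, and 1 Dlx5 heterozygous library reaches 13.2 CPM for Krt5.

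Elf5 was higher in the libraries labelled Kat6a homozygous. It had 1.89, 1.53, 2.84 and 1.76 CPM in the libraries labelled Kat6a homozygous (18 to 33 counts), against 0.430, 0.491, 0.778 and 0.673 CPM in wild type (6 to 12 counts). All 4 lay above every wild type library. The means were 2.00 ± 0.58 CPM and 0.593 ± 0.161 CPM (SD, n = 4 each), and the log2 fold change was 1.80 (SE 0.33, edgeR quasi-likelihood test, adjusted p = 0.00275). Separation of all 4 libraries upwards was seen for 2.87% of genes. Elf5 was the only one of the 10 genes called in this comparison, in which 1.53% of the 14506 genes tested were called and 0.469% were called higher. Of the extraembryonic markers, which were looked at because the trophoblast also expresses Elf5, 6 of 14 passed the filter and 0 were called. Their sum was 44.8 to 82.3 CPM in the libraries labelled Kat6a homozygous and 49.6 to 72.7 CPM in wild type, most of it from Tfap2b, which the facial mesenchyme expresses as well. The 6 tested markers had log2 fold changes from −0.81 to 0.94, with a median of 0.14 and 2 below 0. The trophoblast genes Cdx2 and Prl3d1 had 0 counts in all 4 libraries labelled Kat6a homozygous, and Eomes did not exceed 0.151 CPM in them. These genes are a choice from the 14 markers, given without their wild type levels. Whether trophoblast cells added to the Elf5 values was not tested.

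The mean of Elf5 in each heterozygous group lay between those of wild type and of the libraries labelled Kat6a homozygous. Single libraries did not all lie between them. The double heterozygous libraries had 1.37, 1.22, 1.52 and 1.16 CPM, all above wild type, a difference of 1.38 on the log2 scale (SE 0.42, edgeR adjusted p = 0.128). Such separation upwards was found for 2.82% of genes in that comparison. The Dlx5 heterozygous libraries had 1.12, 0.535, 1.93 and 1.02 CPM, a difference of 1.06 (SE 0.36, edgeR adjusted p = 0.277). The Kat6a heterozygous libraries had 1.49, 0.633, 1.21 and 0.799 CPM, a difference of 0.90 (SE 0.36, edgeR adjusted p = 0.352). Both of these groups overlapped wild type. The libraries labelled Dlx5 homozygous had 1.00, 0.515, 0.825 and 0.806 CPM, also overlapping, a difference of 0.71 (SE 0.48, edgeR adjusted p = 0.630). None of these 4 differences passed the test, and all 5 comparisons share the same wild type libraries. Set against Kat6a heterozygous libraries, those labelled Kat6a homozygous were all higher, as were 2.28% of genes, with a log2 fold change of 0.90 (SE 0.32) and an edgeR adjusted p of 0.264. The libraries labelled Dlx5 homozygous all lay below the double heterozygous ones, as 4.43% of genes did, with a log2 fold change of −0.67 (SE 0.35) and an edgeR adjusted p of 0.716.

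Foxi2, a forkhead factor of the arch ectoderm, was lower in double heterozygous libraries once the batch was fitted. It had 5.02, 7.38, 11.0 and 8.61 CPM in double heterozygous libraries (55 to 130 counts), against 15.1, 11.3, 10.8 and 12.1 CPM in wild type (125 to 422 counts). As measured, double heterozygous replicate 3 lay just above the lowest wild type library. With the fitted batch effect removed the groups did not overlap, as 6.56% of genes did not in this direction. The means were 8.004 ± 2.494 CPM and 12.3 ± 1.9 CPM (SD, n = 4 each), and the log2 fold change was −1.10 (SE 0.22, edgeR adjusted p = 0.0221). It was the only one of the 10 called, where 0.448% of genes were called and 0.152% were called lower. The call was lost without the batch term, where the fold change was −0.63 (adjusted p = 0.257), and in batch 2 alone, which holds 1 double heterozygous library, where it was −1.31 (adjusted p = 0.283). It was also lost without double heterozygous replicate 1 (−0.96, adjusted p = 0.419), 2 (−1.06, 0.0530) or 4 (−1.10, 0.0502), without wild type replicate 4 (−1.11, 0.0595) and without Kat6a heterozygous replicate 4 (−1.10, 0.0756).

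The libraries labelled Dlx5 homozygous had 7.78, 7.99, 10.6 and 9.03 CPM of Foxi2, all below wild type as measured, as were 2.29% of genes. The batch-adjusted log2 fold change was −1.08 (SE 0.24) with an edgeR adjusted p of 0.110. DESeq2 gave −1.08 with an adjusted p of 0.0128, so this call turned on the tool. These libraries share no batch with wild type, so the value rests on a batch term estimated from the heterozygous groups, and without that term it was −0.49. The Dlx5 heterozygous libraries had 10.9, 7.13, 7.73 and 11.0 CPM (log2 fold change −0.60, SE 0.18, edgeR adjusted p = 0.231). The Kat6a heterozygous libraries had 7.96, 6.88, 11.98 and 13.6 CPM (−0.48, SE 0.18, adjusted p = 0.308). The libraries labelled Kat6a homozygous had 7.77, 11.7, 9.73 and 10.8 CPM (−0.32, SE 0.17, adjusted p = 0.409). The last 3 groups overlapped wild type, and none of these differences passed the test in edgeR. The double heterozygous value departed from the sum of the single heterozygous ones by −0.02 for Foxi2 (SE 0.25, edgeR adjusted p = 0.990) and by −0.58 for Elf5 (SE 0.48, adjusted p = 0.907).

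Foxi3, the family member needed for the otic placode and the ear region of the arches, was low and overlapped between all groups. It ranged from 1.23 to 3.01 CPM in the libraries labelled Kat6a homozygous, 1.00 to 3.05 in those labelled Dlx5 homozygous, 1.00 to 2.71 in double heterozygous, 1.11 to 2.93 in Kat6a heterozygous, 1.60 to 2.61 in Dlx5 heterozygous and 1.56 to 2.27 in wild type. Its largest fitted differences from wild type were −0.51 (SE 0.40, edgeR adjusted p = 0.626) in double heterozygous libraries and −0.50 (SE 0.43, edgeR adjusted p = 0.708) in Dlx5 homozygous labelled ones. Its counts ran from 11 to 60 per library.

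Trp63 and Grhl2, the regulators of the epithelial state, did not differ from wild type at an adjusted p under 0.05 in any group. Trp63 averaged 99.5 ± 16.8 CPM in the libraries labelled Kat6a homozygous, 93.1 ± 7.8 in those labelled Dlx5 homozygous, 95.0 ± 14.1 in double heterozygous, 106 ± 28 in Kat6a heterozygous, 107 ± 18 in Dlx5 heterozygous and 97.0 ± 16.9 in wild type (SD, n = 4 each). Its log2 fold change over wild type in the libraries labelled Dlx5 homozygous was −0.33 (SE 0.23, edgeR adjusted p = 0.646). Grhl2 had 34.9, 35.8, 37.9 and 41.6 CPM in the libraries labelled Dlx5 homozygous and 28.7, 35.4, 46.0 and 36.8 CPM in double heterozygous libraries, against 54.8, 32.8, 43.6 and 42.5 CPM in wild type. Wild type spanned nearly the whole range of the other groups. The log2 fold changes of Grhl2 were −0.53 (SE 0.23, edgeR adjusted p = 0.473) for the group labelled Dlx5 homozygous and −0.50 (SE 0.21, adjusted p = 0.310) in double heterozygous libraries.

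Krt5, the basal keratin, was low and the most variable of the 10 genes between libraries. The double heterozygous libraries had 5.84, 3.47, 3.47 and 4.14 CPM, all above the 1.72, 1.88, 2.16 and 2.86 CPM of wild type. The log2 fold change was 1.59 (SE 0.56) with an edgeR adjusted p of 0.217, and 2.82% of genes separated this way. In Dlx5 heterozygous libraries 13.2 CPM in replicate 3 stood against 3.16, 1.87 and 2.99 CPM in the others, and the log2 fold change was 1.47 (SE 0.46, edgeR adjusted p = 0.256). Krt5 had 3.18, 3.18, 1.57 and 2.26 CPM in the libraries labelled Dlx5 homozygous (1.10, SE 0.65, adjusted p = 0.579) and 1.57, 3.56, 5.21 and 1.95 CPM in Kat6a heterozygous libraries (0.71, SE 0.48, adjusted p = 0.596). The libraries labelled Kat6a homozygous had 1.36, 1.19, 3.01 and 1.76 CPM, spanning the wild type range (−0.21, SE 0.51, edgeR adjusted p = 0.895). No difference in Krt5 passed the test. Against Kat6a heterozygous libraries, those labelled Kat6a homozygous differed by −0.92 (SE 0.50, edgeR adjusted p = 0.600) and overlapped. The libraries labelled Dlx5 homozygous all lay below the double heterozygous ones, as 4.43% of genes did, with a difference of −0.49 (SE 0.48, edgeR adjusted p = 0.862).

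The simple keratins Krt8 and Krt18, neighbours on chromosome 15 (101996711 to 102004342 and 102028216 to 102032026 in GRCm38), had lower fitted values in 4 of the 5 mutant groups without passing the test. Krt8 had 52.4, 50.3, 53.8 and 54.0 CPM in the libraries labelled Dlx5 homozygous and 37.0, 57.9, 61.5 and 46.8 CPM in double heterozygous libraries, against 59.7, 50.1, 54.6 and 73.0 CPM in wild type. All 3 groups overlapped as measured, and after removal of the fitted batch effect both mutant groups lay below wild type. That separation held for 5.54% of genes in the libraries labelled Dlx5 homozygous and 6.56% in double heterozygous libraries. The log2 fold changes were −0.64 (SE 0.22, edgeR adjusted p = 0.358) and −0.60 (SE 0.20, adjusted p = 0.184). The libraries labelled Dlx5 homozygous share no batch with wild type, so their fitted differences from it rest on the batch term for every gene. That term, batch 1 over batch 2, was 0.47 for Krt8 and 0.45 for Krt18 on the log2 scale. As measured, Krt8 averaged 52.6 ± 1.7 CPM in the libraries labelled Dlx5 homozygous and 59.4 ± 9.9 CPM in wild type (SD, n = 4 each). Krt18 had 51.3, 49.6, 47.8 and 54.3 CPM in the libraries labelled Dlx5 homozygous (−0.62, SE 0.22, adjusted p = 0.395) and 38.0, 53.0, 62.5 and 43.3 CPM in double heterozygous libraries (−0.57, SE 0.20, adjusted p = 0.228), against 61.6, 46.5, 51.9 and 67.4 CPM in wild type. It overlapped wild type as measured in both and lay below it in both after removal of the batch effect. In Dlx5 heterozygous libraries the log2 fold changes were −0.30 for Krt8 and −0.23 for Krt18, and in Kat6a heterozygous libraries −0.26 and −0.21, with edgeR adjusted p from 0.505 to 0.655. Krt18 stood at 0.09 (SE 0.16, edgeR adjusted p = 0.851) in the libraries labelled Kat6a homozygous.

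Among the adhesion genes, Cdh1 averaged 65.9 ± 13.0 CPM in the libraries labelled Kat6a homozygous, 59.6 ± 2.3 in those labelled Dlx5 homozygous, 59.8 ± 5.2 in double heterozygous, 67.9 ± 18.8 in Kat6a heterozygous, 66.7 ± 10.9 in Dlx5 heterozygous and 57.0 ± 10.2 in wild type (SD, n = 4 each). Its log2 fold change was 0.20 (SE 0.17, edgeR adjusted p = 0.658) in the libraries labelled Kat6a homozygous. Epcam averaged 67.4 ± 13.9 CPM in the libraries labelled Kat6a homozygous, 59.3 ± 2.2 in those labelled Dlx5 homozygous, 61.4 ± 9.1 in double heterozygous, 64.5 ± 14.9 in Kat6a heterozygous, 69.5 ± 13.7 in Dlx5 heterozygous and 61.1 ± 11.2 in wild type. Its log2 fold changes were 0.14 (SE 0.16, edgeR adjusted p = 0.747) in the libraries labelled Kat6a homozygous and −0.38 (SE 0.22, adjusted p = 0.574) in those labelled Dlx5 homozygous. The spread within groups was unequal. For Krt8, Krt18, Epcam, Cdh1, Trp63 and Grhl2 the coefficient of variation was 3.23% to 8.40% in the libraries labelled Dlx5 homozygous, 23.1% to 31.3% in Kat6a heterozygous libraries and 16.6% to 20.8% in wild type. These are of CPM as measured, and only the Kat6a heterozygous group of these spans both batches. Its replicate 2 held 550 CPM of neuron and glia markers, and that of wild type 484 CPM. The part of batch and of dissection in these spreads was not tested.

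**Figure D2:**
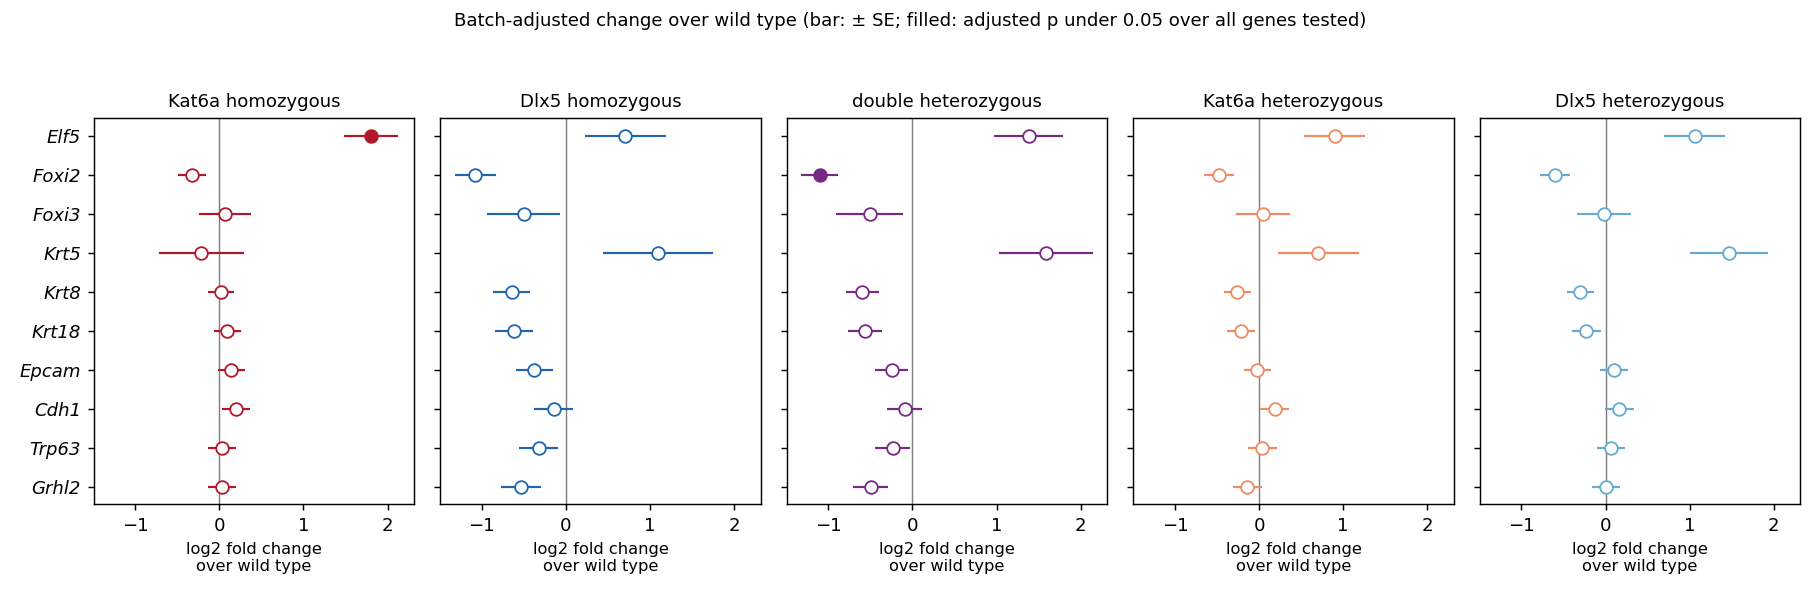
Batch-adjusted log2 fold change over wild type of each of the 10 genes, in 1 panel for each mutant group. Points are edgeR estimates and bars ± SE, and a filled point marks an adjusted p under 0.05 over all 14506 genes. Only Elf5 in the libraries labelled Kat6a homozygous (1.80) and Foxi2 in double heterozygous libraries (−1.10) are filled.

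As a list, 0 of the 10 genes were called in the libraries labelled Dlx5 homozygous, where 0.0551% of genes were called. In Kat6a heterozygous and in Dlx5 heterozygous libraries 0 of 10 were called, and 0% of all genes. The same held between the libraries labelled Dlx5 homozygous and the double heterozygous ones, with 0% of genes called. Between the libraries labelled Kat6a homozygous and the Kat6a heterozygous ones 0 of 10 and 0.641% of genes were called, and for the departure of the double heterozygous group from additivity 0 of 10 and 0.00689%. At an unadjusted p under 0.05, 6 of the 10 genes passed in double heterozygous libraries (13% of all genes), 4 in those labelled Dlx5 homozygous (9.97%), 3 in Dlx5 heterozygous (11.3%), 2 in Kat6a heterozygous (11.4%) and 1 in those labelled Kat6a homozygous (13.6%). In the other 3 comparisons 1 passed between the libraries labelled Kat6a homozygous and the Kat6a heterozygous ones (9.92% of genes), 0 between those labelled Dlx5 homozygous and the double heterozygous ones (7.18%) and 0 for the departure from additivity (5.4%). DESeq2 called 1 of 10 in the libraries labelled Dlx5 homozygous, where it called 0.262% of all genes. It called 0 of 10 in Kat6a heterozygous libraries (0.551% of genes), in Dlx5 heterozygous libraries (0.214%), between the libraries labelled Kat6a homozygous and the Kat6a heterozygous ones (1.01%), between those labelled Dlx5 homozygous and the double heterozygous ones (0.0483%) and for the departure from additivity (0.00689%). With limma voom 0 of 10 were called in each of these 6 comparisons, and of all genes 0.117% in the libraries labelled Dlx5 homozygous, 0.607% in those labelled Kat6a homozygous against Kat6a heterozygous ones, 0.269% in those labelled Dlx5 homozygous against double heterozygous ones and 0% in the other 3. The median log2 fold change of the 10 was −0.44 in the libraries labelled Dlx5 homozygous and −0.37 in double heterozygous libraries, with 8 of 10 below 0 in each, and the medians of all genes tested were −0.002 and 0.007. Of the 14506 genes tested, 7320 and 7012 were below 0. The medians of the 10 depended on the batch term. Without it the median of the 10 was −0.05 in the libraries labelled Dlx5 homozygous, with 7 of 10 below 0, and −0.07 in double heterozygous libraries, with 6 of 10. In that fit 7479 and 6897 of the 14506 genes were below 0, with medians of −0.005 and 0.008. The departure of the double heterozygous group from additivity was below 0 for all 10 genes, from −0.59 to −0.02 with a median of −0.35, and for 8 of 10 without the batch term (median −0.28). The median over all genes was −0.007 with the batch term and −0.008 without it, and 7477 and 7585 of the 14506 genes were below 0. Against wild type, with the batch term, the median of the 10 was 0.05 in the libraries labelled Kat6a homozygous. It was 0.01 in Kat6a heterozygous and 0.04 in Dlx5 heterozygous libraries. The medians of all genes in these 3 comparisons were 0.006, 0.009 and 0.008. Genes of the list varied together across libraries, so these counts are not 10 separate observations, and the wild type libraries are shared by all 5 comparisons.

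Other epithelial genes of the arches were measured beside them. Of 27 tested genes of epithelial junctions and polarity, such as claudins and desmosomal genes, 0 were called in any comparison. Their median log2 fold change was −0.31 both in the libraries labelled Dlx5 homozygous (26 of 27 below 0) and in double heterozygous libraries (24 of 27). Without the batch term it was −0.13 and −0.12, with 23 of 27 below 0 in each. Of all 14506 genes tested, 7320 and 7012 were below 0 with the batch term, and 7479 and 6897 without it. The junction and polarity genes summed to 694 to 1016 CPM in the libraries labelled Kat6a homozygous and 700 to 778 in those labelled Dlx5 homozygous. They summed to 655 to 878 CPM in double heterozygous and 666 to 883 in wild type libraries. Of 17 tested keratins and basement membrane genes and of 18 ectodermal signals, 0 were called in any comparison, and of 17 epithelial regulators 0 were called against wild type. Between the libraries labelled Kat6a homozygous and the Kat6a heterozygous ones 1 epithelial regulator rose, Snai1, a repressor of Cdh1 that mesenchyme also expresses, by 0.38 on the log2 scale (SE 0.08, edgeR adjusted p = 0.0266). Of 14 oral ectoderm and placode regulators 1 fell in the libraries labelled Kat6a homozygous against wild type, the homeobox gene Dlx3 (−0.86, SE 0.08, edgeR adjusted p = 1.57e-07), and 0 were called in the other 4 mutant groups. Dlx3 was also called in the libraries labelled Kat6a homozygous against Kat6a heterozygous ones (−0.56, SE 0.08, edgeR adjusted p = 0.000477). Of 12 arch mesenchyme genes 2 were called lower in the libraries labelled Kat6a homozygous against wild type. These were Dlx5 (−0.87, SE 0.08, edgeR adjusted p = 1.46e-07) and Barx1 (−0.56, SE 0.12, edgeR adjusted p = 0.0218). Against Kat6a heterozygous libraries the lower ones were Dlx5 (−0.72, SE 0.08, edgeR adjusted p = 1.17e-05) and Pdgfra (−0.43, SE 0.09, edgeR adjusted p = 0.0198). Col1a2 was called higher in double heterozygous libraries (0.66, SE 0.11, edgeR adjusted p = 0.00851). The tissue in which Dlx3 differed was not tested. Of 9 endoderm markers 1 rose in double heterozygous libraries, Pax9 (0.84, SE 0.16, edgeR adjusted p = 0.0202), which arch mesenchyme also expresses. The endoderm markers summed to 53.6 to 58.8 CPM in double heterozygous and 53.1 to 64.4 CPM in wild type libraries, and their part in the values of the 10 genes was not tested.

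The 10 genes varied together within groups. Over the 24 libraries, with group and batch removed from log2 CPM, 35 of the 45 pairs were correlated at an adjusted p under 0.05 by Pearson's r (permutation test, 100000 resamples, two-sided, adjusted over the 45 pairs), and 32 by Spearman's rho. The median r was 0.56 and 43 of 45 were positive. The share of pairs that pass among all genes was not computed, so 35 of 45 is not shown to be particular to these genes. The permutations treated the 24 residuals as exchangeable, while the fit left 17 degrees of freedom, so these p-values come out too small. Pairs near the threshold are therefore not firm. For Krt8, Krt18, Epcam, Cdh1, Trp63 and Grhl2 all 15 pairs passed, with r from 0.68 to 0.96. Cdh1 and Trp63 had r = 0.963 and rho = 0.940 (permutation adjusted p = 6.43e-05, the smallest the resamples can give here), 0.951 without the 2 libraries farthest from the median of Cdh1, 0.991 in 14 libraries of batch 2 and 0.770 in 7 of batch 1. Krt8 and Krt18 had r = 0.915 and rho = 0.904 (permutation adjusted p = 6.43e-05), 0.886 without the 2 farthest, 0.925 in batch 2 and 0.901 in batch 1. Cdh1 (4413 bases) and Trp63 (6056) are long, Krt8 (1805) and Krt18 (1400) short. In wild type replicate 4, the library with the steepest length slope, log2 deviations from the gene's mean were −0.24 and −0.16, and 0.43 and 0.34, in that order. The part of gene length in the correlations was not tested. Elf5 passed with all 6 of these genes by Pearson's r, from 0.45 to 0.71, and with 5 of 6 by rho. With the group differences kept, its r with them was 0.18 to 0.43. Foxi2 passed with 5 of the 6, r from 0.42 to 0.72, and Foxi3 with 4. Krt5 passed with 3, and with 1 by rho. Foxi2 was not correlated at that threshold with Elf5 (r = 0.124, rho = 0.110, permutation adjusted p = 0.575 and 0.622) and with Krt5 (r = −0.035, rho = −0.083, permutation adjusted p = 0.874 and 0.696). Elf5 and Krt5 had r = 0.508 and rho = 0.325 (permutation adjusted p = 0.0182 and 0.142), and r fell to 0.0887 without the 2 farthest, so that relation rests on those libraries. In batch 1 alone, with 7 libraries, 1 of 45 pairs passed.

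**Figure D3:**
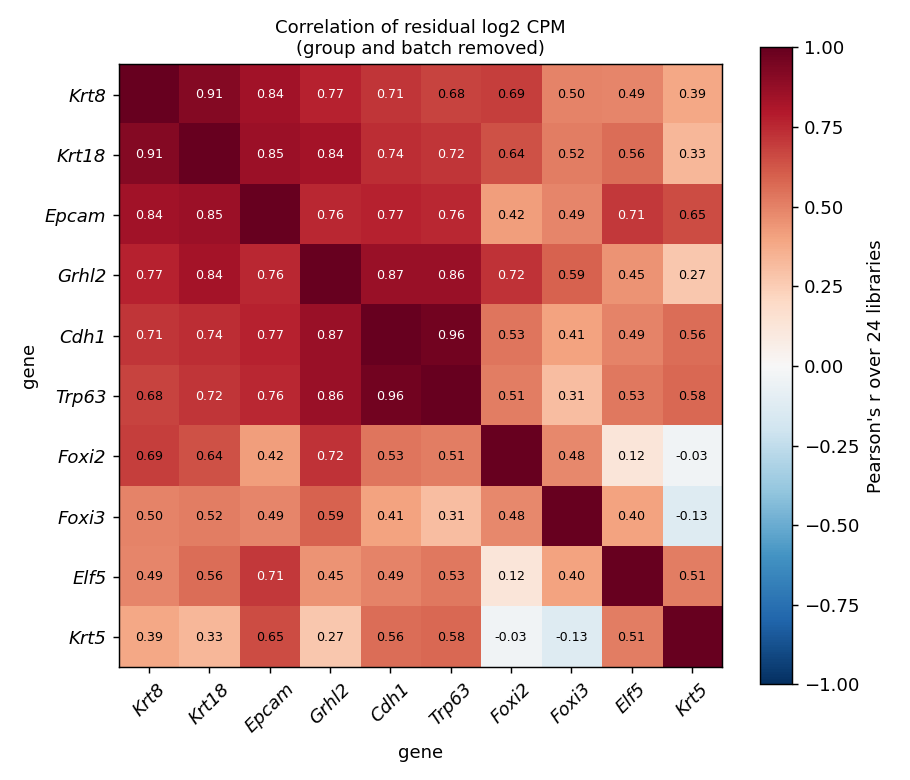
Pearson's r between the 10 genes over 24 libraries, from log2 CPM with group and batch removed, with the colour scale running from −1 to 1. The block of Krt8, Krt18, Epcam, Grhl2, Cdh1 and Trp63 holds values of 0.68 to 0.96, and the values nearest to 0 are those of Foxi2 with Krt5 (−0.03) and with Elf5 (0.12).

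The mean of the scaled residuals of the 10 genes was lowest in replicate 2 of Kat6a heterozygous (−1.50), Dlx5 heterozygous (−1.39) and wild type (−0.993), the 3 libraries with the highest neuron and glia markers. Below these 3 the order of the libraries by this mean was not that by the markers. Double heterozygous replicate 3, with 306 CPM of them, stood at 0.908, replicate 2 of the libraries labelled Kat6a homozygous, with 300 CPM, at −0.535 and replicate 1 of the libraries labelled Kat6a homozygous, with 39.7 CPM, at −0.711. It was highest in replicate 3 of Kat6a heterozygous (1.45), of the libraries labelled Kat6a homozygous (1.32) and of Dlx5 heterozygous (1.14). The part of these markers in the correlations was not tested. Of 13688 other genes with a mean of at least 1 CPM, the 5 whose residuals followed this mean most closely over the 24 libraries were Ezr (r = 0.950), the membrane linker ezrin, St14 (r = 0.948), the epithelial protease matriptase, Bcam (r = 0.948), a laminin receptor, Vwa2 (r = 0.938), a basement membrane protein, and Pdgfa (r = 0.937), an ectodermal growth factor. Of the first 50, 13 were on the lists of epithelial regulators, of junctions and polarity, or of keratins and basement membrane genes. These lists held 17, 27 and 17 tested genes, and the ectodermal signals were not counted.

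The called differences of Elf5 and Foxi2 were set beside the epithelial junction score of each library, the mean scaled log2 CPM of the junction genes. It ran from −0.511 to 1.35 in the libraries labelled Kat6a homozygous, −0.621 to 0.0602 in those labelled Dlx5 homozygous, −0.928 to 0.461 in double heterozygous and −0.998 to 0.598 in wild type libraries. With this score as a covariate, chosen after seeing the data, Elf5 in the libraries labelled Kat6a homozygous differed by 1.76 (SE 0.29, edgeR adjusted p = 0.000577), where 3.02% of all genes were called with the covariate and 1.53% without it. In double heterozygous libraries Foxi2 then differed by −0.92 (SE 0.20, edgeR adjusted p = 0.0156), and Elf5 (1.72, SE 0.39, adjusted p = 0.0204) and Krt5 (2.10, SE 0.45, adjusted p = 0.0209) were called as well. The covariate raised the calls over all genes there too, to 2.32% with it, against 0.448% without it. Foxi2 was also called in Dlx5 heterozygous libraries in that fit (−0.61, SE 0.15, edgeR adjusted p = 0.0453), close to its −0.60 without the covariate, while the share of all genes called was 1.21% with the covariate and 0% without it. With the covariate the median of the 10 genes was −0.10 in the libraries labelled Dlx5 homozygous (7 of 10 below 0). It was −0.10 in double heterozygous libraries (5 of 10) and −0.06 for the departure from additivity (6 of 10). Of all 14506 genes, 7205, 6842 and 7489 were below 0 in these.

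**Figure D4:**
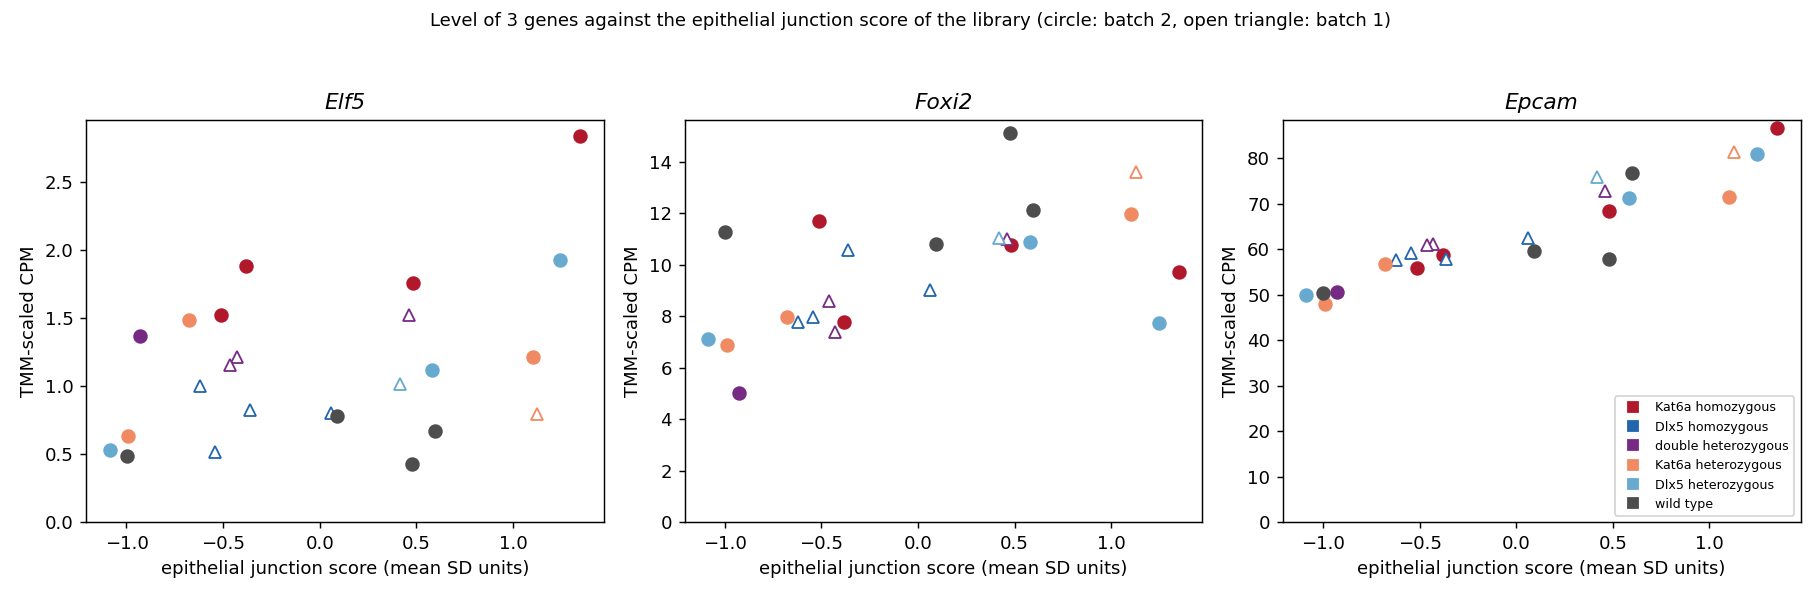
TMM-scaled CPM of Elf5, Foxi2 and Epcam in each library (vertical axes from 0) against its epithelial junction score (horizontal, mean of scaled log2 CPM in SD units), coloured by genotype, with circles for batch 2 and open triangles for batch 1. The libraries labelled Kat6a homozygous lie above wild type for Elf5 at scores from −0.511 to 1.35, and Epcam runs with the score across genotypes, from 48.0 to 86.6 CPM.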

How the data were processed

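Counts of reads per gene were analysed for 24 libraries. The authors deposited raw counts, with Entrez identifiers and gene lengths. Per the submitters' processing notes, CASAVA 1.8.2, featureCounts and mm10 were used. Per the labels' protocols, the kit was TruSeq Stranded mRNA. The aligner, the annotation and whether strand was used were not given in the sources used here. Entries without an identifier (568 of 27179, 0.182% to 0.259% of a library's counts) were left out. Symbols, matched for 25275 of 26611 genes, and coordinates came from RefSeq on GRCm38.

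edgeR 4.0.16 (R 4.3.3) used filterByExpr, TMM scaling, robust quasi-likelihood dispersions and a model of 6 genotype means plus batch, with 17 residual degrees of freedom. Adjusted p-values are Benjamini-Hochberg over 14506 genes, and a gene was called under 0.05. Standard errors follow from the test statistic. CPM are TMM-scaled, with a prior count of 2 on the log2 scale. "After removal of the fitted batch effect" means log2 CPM less the batch coefficient. Correlations used 100000 permutations of the residuals (Python 3.11.15, scipy 1.17.1).

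Members and lists were chosen with earlier results of these data known. All 10 members are named with their values. Of the epithelial, ectodermal, endoderm and mesenchyme lists, up to 4 called genes per comparison are named. As most similar genes the 5 with the highest r to the members' mean residual are named. Group, replicate and batch came from the labels. Alternatives were DESeq2 1.42.0, limma 3.58.1 voom with quality weights, RLE scaling, 2 other filters, a fit to only the groups compared, a fit without batch, fits within 1 batch, a replicate block and each library left out. Added after seeing the data were the removal of neuron-rich libraries, length-corrected offsets, the epithelial junction covariate, and leaving libraries out of the correlations. The procedure was tested on simulated counts. Replicates differed by 3.04 to 23.3 times the chi-square of sampling alone, so none was counted as a duplicate. Deviations of same-numbered libraries correlated above 0.1 in all 4 pairs between Kat6a heterozygous and wild type (0.183 to 0.661), from the data alone, since the labels give no origin for the numbers.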

Additional observations from a re-analysis of the deposited data

Results flagged for a closer look

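Krt5 in Dlx5 heterozygous replicate 3 stood far from the other libraries of its group, at 13.2 CPM (143 counts) against 1.87 to 3.16 CPM in the other 3. Its gap to the nearest library was 0.886 of the range of the group, above Dixon's 95% critical value for 4 samples. With 60 groups examined, 1 was marked in this way, and chance marks about 1 in 20.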

How the results depend on the processing

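Elf5 stayed called in the libraries labelled Kat6a homozygous in every setting run, between 1.58 (without Kat6a homozygous replicate 3) and 1.95 on the log2 scale, with adjusted p from 0.000252 to 0.0309. In double heterozygous libraries the number of the 10 genes called was 1, and 0 with no batch term, in 1 batch alone and with only the groups compared (Foxi2 −1.32, adjusted p = 0.152), 0 to 1 when single libraries were left out, and 3 with the epithelial junction score as covariate. Over all genes the share called there was 0.448%, against 0.0689%, 0.06% and 0.0716% in those 3 fits, 0.00682% (without double heterozygous replicate 1) to 1.15% (without wild type replicate 1) when single libraries were left out and 2.32% with the covariate. In the libraries labelled Dlx5 homozygous the number of the 10 called was 0, and 1 with DESeq2, and 0 to 1 when single libraries were left out, with Foxi2 called (−1.16, adjusted p = 0.0353) without Kat6a heterozygous replicate 3, where 0.0956% of all genes were called. In Dlx5 heterozygous libraries it was 0, and 1 with that covariate. The libraries labelled Dlx5 homozygous have no value within a batch against wild type, so none was computed. The cause of these changes was not tested, except that 1 batch alone and only the groups compared use fewer libraries. With the replicate block, a term for shared replicate numbers, Foxi2 in double heterozygous libraries stood at −1.13 (adjusted p = 0.0328) and no call among the 10 genes changed. The same-numbered correlations passed 0.1 in all 4 pairs between Kat6a heterozygous and wild type, in 3 of 4 between the libraries labelled Kat6a homozygous and wild type, between the libraries labelled Kat6a homozygous and Kat6a heterozygous ones, and between Dlx5 heterozygous and wild type, and in 0 to 1 of 4 in the other 3 comparisons. Signs turned for values near 0. The departure of Foxi2 from additivity was 0.10 with no batch term, 0.17 with the covariate and −0.15 to 0.13 when single libraries were left out. Against wild type, in libraries labelled Kat6a homozygous, Epcam stood between −0.00977 and 0.264 and Krt18 between −0.00958 and 0.175 when single libraries were left out. Of the 45 pairs 35 passed, and 1 in batch 1 alone, 27 in batch 2 alone, 29 with group kept and 29 to 37 when single libraries were left out. Low counts limit Elf5, Foxi3 and Krt5, for which 6 to 143 counts stood behind a value.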

Other observations

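In the Dlx5 heterozygous library with high Krt5, the 10 of 13698 genes with the highest residual were, in order, Capn11, Krt5, Slc15a2, Zfp750, Wnt10b, Snord14d, Gjb2, Snord2, Gjb6 and Epha8. They form no list and were not tested for a shared theme, and the genes described here were chosen after their values were seen. Zfp750, a factor of keratinocyte differentiation, had 6.26 CPM there and at most 2.50 CPM in the other 23 libraries. The gap junction genes Gjb2 and Gjb6 had 23.8 and 4.88 CPM there, and at most 9.96 and 2.69 CPM elsewhere. Wnt10b, an ectodermal ligand, had 6.99 CPM there and at most 2.62 CPM elsewhere. Capn11, the first in that order, had 5.80 CPM there and up to 9.13 CPM in another library.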
